A study of Danio rerio with 6 samples.

Results

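The glucocorticoid receptor gene nr3c1, the mineralocorticoid receptor gene nr3c2, the cortisol-inactivating enzyme gene hsd11b2 and 4 genes known to be induced by glucocorticoids (fkbp5, tsc22d3, klf9 and sgk1) were followed in whole kidney marrow of zebrafish. The 7 genes were chosen by name, with earlier results of these data known. Each symbol matched 1 Ensembl identifier among the 32267 features of the deposited table. All 7 were among the 20782 genes that averaged 10 or more normalized counts per library and so entered the fit. RNA was sequenced from unfractionated whole kidney marrow, where fish make their blood cells, and all fish had the TLEK background. The first group of 3 libraries came from il7 mutant fish, whose il7 gene, which encodes the lymphocyte cytokine interleukin 7, lacks exons 2 to 4. The second group of 3 libraries came from control fish with the wild-type genotype. The study asked what il7 does in lymphocyte development. The sources used here do not state age, sex, time of sampling or how many fish a library holds. The p-values therefore speak of the spread among these 6 libraries, part of which may be technical.

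Cortisol is the main glucocorticoid of fish and is made in interrenal cells, which lie within the head kidney beside the blood-forming tissue. It binds the glucocorticoid receptor, a transcription factor that is held ready by a chaperone complex and, once bound by hormone, acts on genes in the nucleus. Among the target genes, fkbp5 feeds back on the response, as it encodes a co-chaperone that lowers the receptor's affinity for hormone. The target gene tsc22d3 encodes GILZ, an anti-inflammatory leucine zipper protein. The transcription factor gene klf9 and the kinase gene sgk1 are also induced in many vertebrate tissues. The mineralocorticoid receptor binds cortisol too, and the enzyme encoded by hsd11b2 converts cortisol to inactive cortisone.

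Depth ran from 34496353 to 46120889 assigned reads per library. The targeted gene il7 stood at 16.5, 17.9 and 4.00 normalized counts in il7 mutants 1, 2 and 3, against 89.8, 61.6 and 57.7 in controls 1, 2 and 3. Markers of erythroid cells, neutrophils, lymphocytes and kidney tubule were detected in every library. The libraries were not alike in other tissues: the 12 oocyte markers summed to 137684 normalized counts in il7 mutant 2 and 275266 in control 1, with 244 to 600.2 in the other 4 libraries. The values of the 7 genes without this pair are given below. Muscle markers were highest in il7 mutant 1, at 167026 summed normalized counts, and in control 3, at 88842, against 6161 to 20980 in the other 4 libraries. Liver markers were the list that moved most with the groups, with 11 of 12 higher in il7 mutants, a median log2 change of 2.39 and sums of 7297 to 30335 in il7 mutants and 1401 to 17533 in controls. All 7 fitted erythroid markers were higher in il7 mutants (median log2 change 0.74), with overlapping sums of 202461 to 531636 in il7 mutants and 76032 to 383184 in controls. The part of these tissues in the results below was not tested.

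Of the receptors and induced genes, tsc22d3 and klf9 were lower in every il7 mutant library than in any control library. The mean of tsc22d3 in mutants was 38.8% of the control mean and that of klf9 was 34.9%. The mean of fkbp5 was 44.7% of the control mean, with overlapping groups, while sgk1, nr3c1, nr3c2 and hsd11b2 overlapped widely. None of these differences passed the adjusted threshold of 0.05 in limma's moderated test over all genes. That test called 0 of the 20782 fitted genes (0%), and without adjustment 723 of them had a p under 0.05 (3.48%). Even the targeted gene il7 was not called, at a limma p of 0.00703 before adjustment. Missing the adjusted threshold here therefore does not show that a gene was unchanged. The authors' deposited table holds 112 genes under an adjusted p of 0.05 (0.521% of the 21481 with a value), and the 7 genes were not among them. That table does call il7, at an adjusted p of 0.0403.

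**Figure D1:**
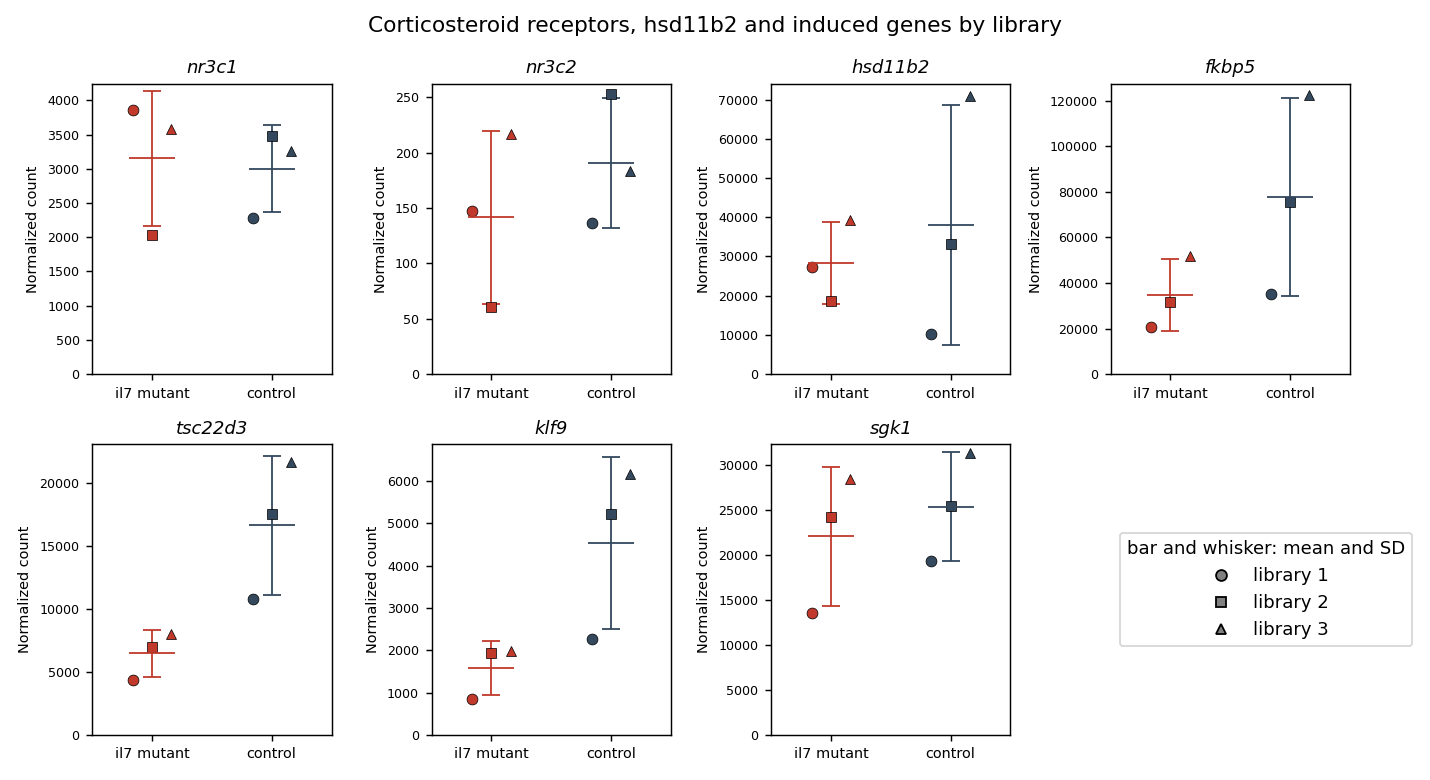
Normalized count (vertical axis, starting at 0) of each of the 7 genes in 3 il7 mutant libraries (red, left) and 3 control libraries (dark, right). The bar and whisker give the mean and SD, and the marker shape gives the library number. For tsc22d3 the mutant libraries lie between 4376 and 8033, below the lowest control library at 10736.

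The gene of the glucocorticoid receptor, nr3c1 (ENSDARG00000025032), had 3858, 2030 and 3578 normalized counts in il7 mutants 1, 2 and 3, against 2284, 3473 and 3254 in controls 1, 2 and 3. The groups overlapped, and the lowest library of each group was the one rich in oocyte transcripts. The means were 3155 ± 985 in il7 mutants and 3004 ± 632 in controls (SD, n = 3 each). On the log2(normalized count + 1) scale, where a change understates that of low genes, the difference was 0.04 (SE 0.32, adjusted p = 1.00 in limma). Its 95% interval, as a fold of mutant over control, ran from 0.605 to 1.75, so these libraries did not settle the direction of any difference. The sign rested on single libraries, at −0.13 without il7 mutant 1, −0.08 without il7 mutant 3 and −0.15 without control 1. In unsorted marrow, fewer cells of one type and less RNA per cell cannot be told apart.

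The mineralocorticoid receptor gene nr3c2 (ENSDARG00000102082) was measured with far fewer reads, between 61 and 250 per library. It stood at 147, 60.5 and 217 normalized counts in il7 mutants 1, 2 and 3, against 136, 253 and 183 in controls 1, 2 and 3. The lowest value belonged to il7 mutant 2 and the highest to control 2, and the other 4 libraries were interleaved. The log2 change was −0.56 (SE 0.54, adjusted p = 1.00 in limma), and il7 mutant 2 set much of it, since it was −0.05 without that library.

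The balance of the 2 receptors was also compared within each library, which takes out any common scaling. The log2 ratio of nr3c1 to nr3c2 normalized counts was 4.71, 5.07 and 4.04 in il7 mutants 1, 2 and 3, against 4.07, 3.78 and 4.15 in controls 1, 2 and 3. The ratios of il7 mutants 1 and 2 lay above all controls, and that of il7 mutant 3 lay between controls 1 and 2. The ratio averaged 4.61 ± 0.52 in il7 mutants and 4.00 ± 0.19 in controls (SD, n = 3 each). The difference of 0.61 log2 units gave p = 0.3 in a two-sided exact permutation test, where 3 against 3 libraries cannot go below 0.1. It was 0.38 without il7 mutant 2 and 0.41 without the oocyte-rich pair.

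The enzyme gene hsd11b2 (ENSDARG00000001975) had 27324, 18527 and 39240 normalized counts in il7 mutants 1, 2 and 3, against 10127, 33158 and 70912 in controls 1, 2 and 3. The control libraries held both the lowest and the highest value, so the mutant group lay inside the control range. The log2 change was −0.09 (SE 0.71, adjusted p = 1.00 in limma), with a 95% interval from −1.80 to 1.62. Its direction was not fixed: the change was 0.56 without control 3 and −0.84 without control 1, and it also turned positive with il7 mutant 2 (0.19) or control 2 (0.02) left out. The lowest library of each group was again the oocyte-rich one. The summed counts of 12 kidney tubule marker symbols, which matched 16 features, ranked the libraries as hsd11b2 did except for il7 mutant 1 and control 2, at 494354, 229958 and 568286 in il7 mutants 1, 2 and 3 and 194352, 415990 and 593958 in controls 1, 2 and 3. Whether the amount of tubule tissue sets the hsd11b2 level was not tested.

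Among the induced genes, tsc22d3 (ENSDARG00000075666), the GILZ gene, had 4376, 6947 and 8033 normalized counts in il7 mutants 1, 2 and 3, against 10736, 17509 and 21651 in controls 1, 2 and 3. The groups did not overlap. The means were 6452 ± 1878 in il7 mutants and 16632 ± 5510 in controls (SD, n = 3 each), and the log2 change was −1.35 (SE 0.35) with a 95% interval from −2.21 to −0.50. The limma p was 0.00761 before and 1.00 after adjustment over all genes. The two-sided exact permutation test gave 0.1, the smallest p that 3 against 3 libraries allow. The authors' deposited table lists tsc22d3 at an unshrunken log2 fold change of −1.37, a shrunken one of −1.12 and an adjusted p of 0.134.

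The klf9 gene (ENSDARG00000068194), which encodes a Krüppel-like transcription factor, had 840.5, 1941 and 1976 normalized counts in il7 mutants 1, 2 and 3, against 2265, 5214 and 6168 in controls 1, 2 and 3. The groups did not overlap, but il7 mutants 2 and 3 lay close to control 1. The means were 1586 ± 646 in il7 mutants and 4549 ± 2035 in controls (SD, n = 3 each). The log2 change was −1.50 (SE 0.50, adjusted p = 1.00 in limma, 0.0226 before adjustment) and the 95% interval ran from −2.71 to −0.29. The authors' deposited table lists klf9 at an unshrunken log2 fold change of −1.52, a shrunken one of −1.12 and an adjusted p of 0.338.

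The co-chaperone gene fkbp5 (ENSDARG00000028396) had 20811, 31811 and 51691 normalized counts in il7 mutants 1, 2 and 3, against 35204, 75677 and 122329 in controls 1, 2 and 3. The groups overlapped because il7 mutant 3 lay above control 1. The log2 change was −1.08 (SE 0.54, adjusted p = 1.00 in limma), with a 95% interval from −2.39 to 0.22, and it was −0.67 without control 3, the library with the highest value. For fkbp5 the authors' deposited table gives −1.16 unshrunken and −0.82 shrunken, with an adjusted p of 1.00.

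The kinase gene sgk1 (ENSDARG00000025522), whose product acts on ion transport and cell survival, had 13538, 24230 and 28508 normalized counts in il7 mutants 1, 2 and 3, against 19333, 25490 and 31361 in controls 1, 2 and 3. The values of both groups were interleaved apart from il7 mutant 1, the lowest, and control 3, the highest. The log2 change was −0.24 (SE 0.35, adjusted p = 1.00 in limma), with a 95% interval from −1.08 to 0.60, and it was 0.08 without il7 mutant 1.

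Counted together, 2 of the 7 genes were lower in il7 mutants with no overlap between the groups, where 4.44% of all fitted genes were, and none was higher with no overlap, where 3.51% of fitted genes were. The same 2 genes, tsc22d3 and klf9, were the ones at an unadjusted limma p under 0.05, as were 2.12% of fitted genes in the lower direction. Since the 7 were chosen with earlier results of these data known, these shares carry no test. The median log2 change of the 7 was −0.56, beside −0.04 over all fitted genes, of which the middle 90% lay between −1.05 and 0.94. With the oocyte-rich pair, il7 mutant 2 and control 1, left out, 4 of the 7 had groups that did not overlap: fkbp5, tsc22d3 and klf9 lower and nr3c1 higher in the mutants. Groups of 2 separate easily, and among all fitted genes 16.6% were then lower and 15.7% higher with no overlap. With only 2 libraries a group, limma then gave log2 changes of −1.55 for fkbp5, −1.72 for tsc22d3, −2.14 for klf9, −0.53 for sgk1, 0.14 for nr3c1, −0.27 for nr3c2 and −0.57 for hsd11b2, each with an adjusted p of at least 0.608.

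**Figure D2:**
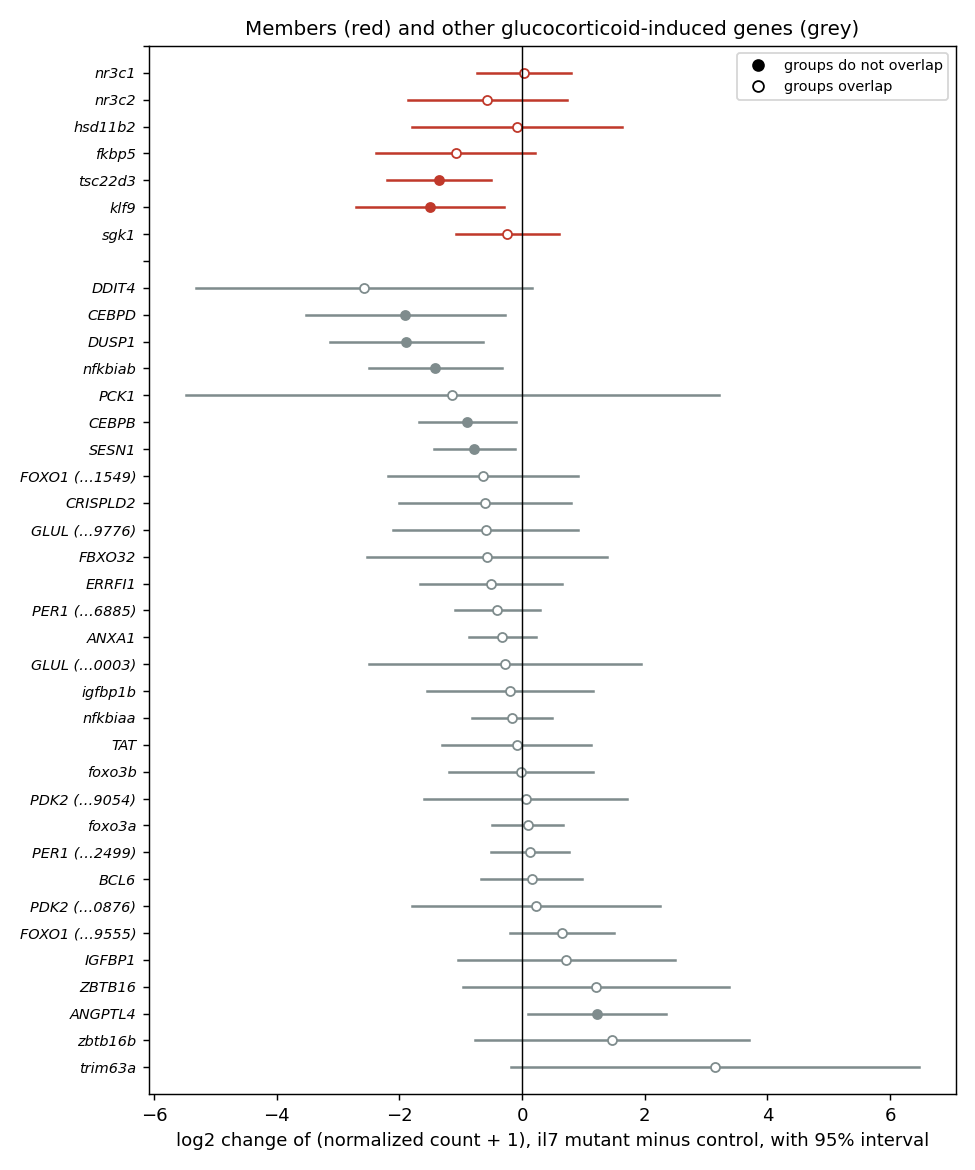
The log2 change of (normalized count + 1), il7 mutant minus control, is on the horizontal axis with its 95% interval from limma, for the 7 genes (red) and 30 other glucocorticoid-induced genes (grey). Filled points mark genes whose groups do not overlap, and a symbol held by 2 features carries the last digits of its identifier. The intervals of tsc22d3 and klf9 lie below 0, while those of the receptors, hsd11b2, fkbp5 and sgk1 cross it.

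To set the induced genes beside their receptor without regard to library scaling, the log2 ratio of each to nr3c1 was taken in every library, a measure chosen after the values were seen. For tsc22d3 it was 0.18, 1.78 and 1.17 in il7 mutants 1, 2 and 3, against 2.23, 2.33 and 2.73 in controls 1, 2 and 3. The mutant ratios all lay below the control ratios, and the difference was −1.39 log2 units. For klf9 the ratio was −2.20, −0.06 and −0.86 in il7 mutants 1, 2 and 3, against −0.01, 0.59 and 0.92 in controls 1, 2 and 3. These groups did not overlap either, although il7 mutant 2 and control 1 nearly met, and the difference was −1.54, or −0.96 without il7 mutant 1. For both genes the two-sided exact permutation test over the 3 mutant and 3 control libraries gave 0.1, the smallest p it can give. The ratios reuse the tsc22d3 and klf9 counts given above, whose log2 changes were −1.35 and −1.50, while nr3c1 differed by 0.04. They are therefore no separate support for a difference.

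The fkbp5 ratio to nr3c1 averaged 3.42 ± 0.86 in il7 mutants and 4.54 ± 0.65 in controls, and the sgk1 ratio averaged 2.79 ± 0.90 in il7 mutants and 3.08 ± 0.20 in controls (SD, n = 3 each). The exact permutation p was 0.2 for the fkbp5 difference of −1.12 and 0.8 for the sgk1 difference of −0.28. Without il7 mutant 1 these were −0.63 for fkbp5 and 0.21 for sgk1. With the oocyte-rich pair left out, the differences were −1.70 for fkbp5, −1.86 for tsc22d3, −2.28 for klf9 and −0.67 for sgk1. Both ratios overlapped between the groups, and that of sgk1 was higher in il7 mutant 2 than in any control.

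**Figure D3:**
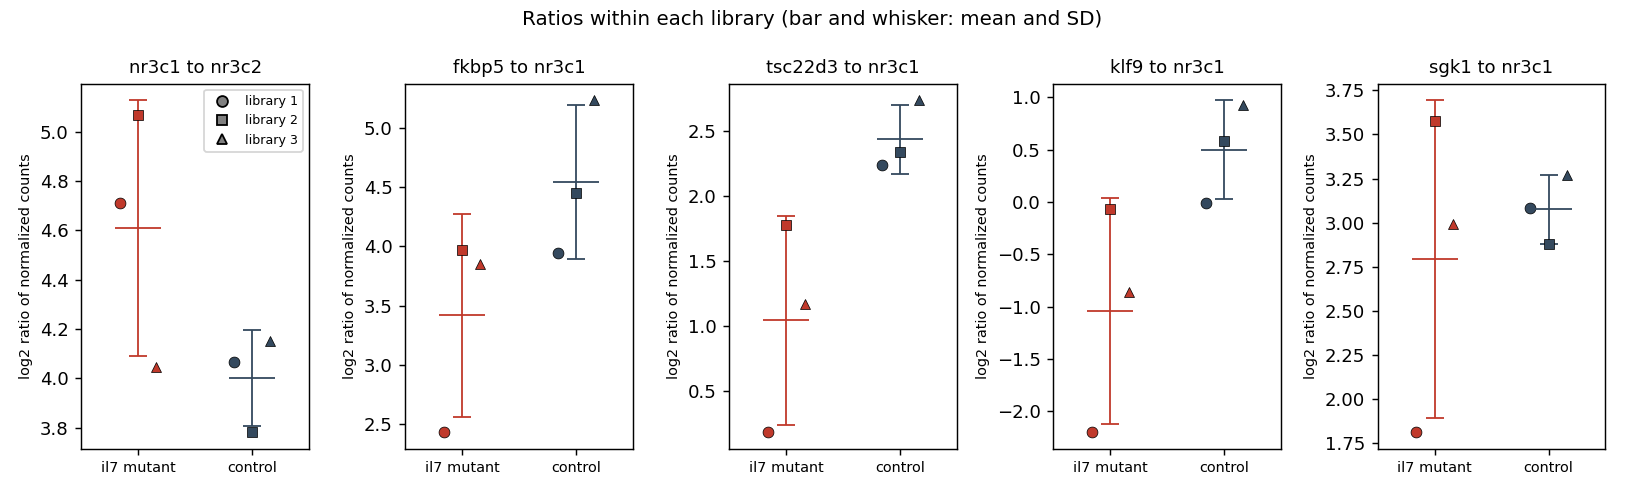
The vertical axis of each panel gives the log2 ratio of 2 normalized counts within a library, for 3 il7 mutant libraries (red, left) and 3 control libraries (dark, right). The bar and whisker are the mean and SD, and the axes do not start at 0. The tsc22d3 and klf9 ratios to nr3c1 do not overlap between groups, with the tsc22d3 ratio at most 1.78 in mutants and at least 2.23 in controls.

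The libraries within a group also differed in the induced genes. Within the mutants, il7 mutant 1 had the lowest level of fkbp5, tsc22d3, klf9 and sgk1, and il7 mutant 3 the highest. Within the controls, control 1 had the lowest level of all 4 and control 3 the highest. As log2 units from the mean of the 6 libraries, the median of the 4 genes was −1.19, −0.44 and −0.09 in il7 mutants 1, 2 and 3 and −0.19, 0.74 and 1.21 in controls 1, 2 and 3. The library lowest in these genes, il7 mutant 1, and the one highest, control 3, were also the 2 richest in muscle markers. The receptors ranked the libraries otherwise: nr3c1 was highest in il7 mutant 1 and nr3c2 in control 2. The cortisol-synthesis gene cyp11c1, an interrenal marker, stood at 9.43, 9.92 and 63.9 normalized counts in il7 mutants 1, 2 and 3, against 19.7, 9.09 and 115 in controls 1, 2 and 3. It was highest in il7 mutant 3 and control 3. So were STAR, at 554.5 and 239.6, and the median of the interrenal and chromaffin markers, at 0.37 and 0.71 log2 units above the mean. The interrenal genes cyp17a2, hsd3b1 and mc2r were instead highest in control 1, an oocyte-rich library, at 229, 258 and 18.1 normalized counts. Next highest for cyp17a2 was il7 mutant 2, the other oocyte-rich library, at 106.1. For hsd3b1 and mc2r it was control 3, at 41.05 and 11.09. The libraries il7 mutant 3 and control 3 also had the highest median of the testis and meiosis markers, at 2.24 and 3.32 log2 units above the mean. By summed counts of that list il7 mutant 3, at 5207, lay below il7 mutant 2 (6102), control 1 (6869) and control 3 (8813). It lay above il7 mutant 1 (1184) and control 2 (536.6). The part of these cell types in the induced genes was not tested.

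**Figure D4:**
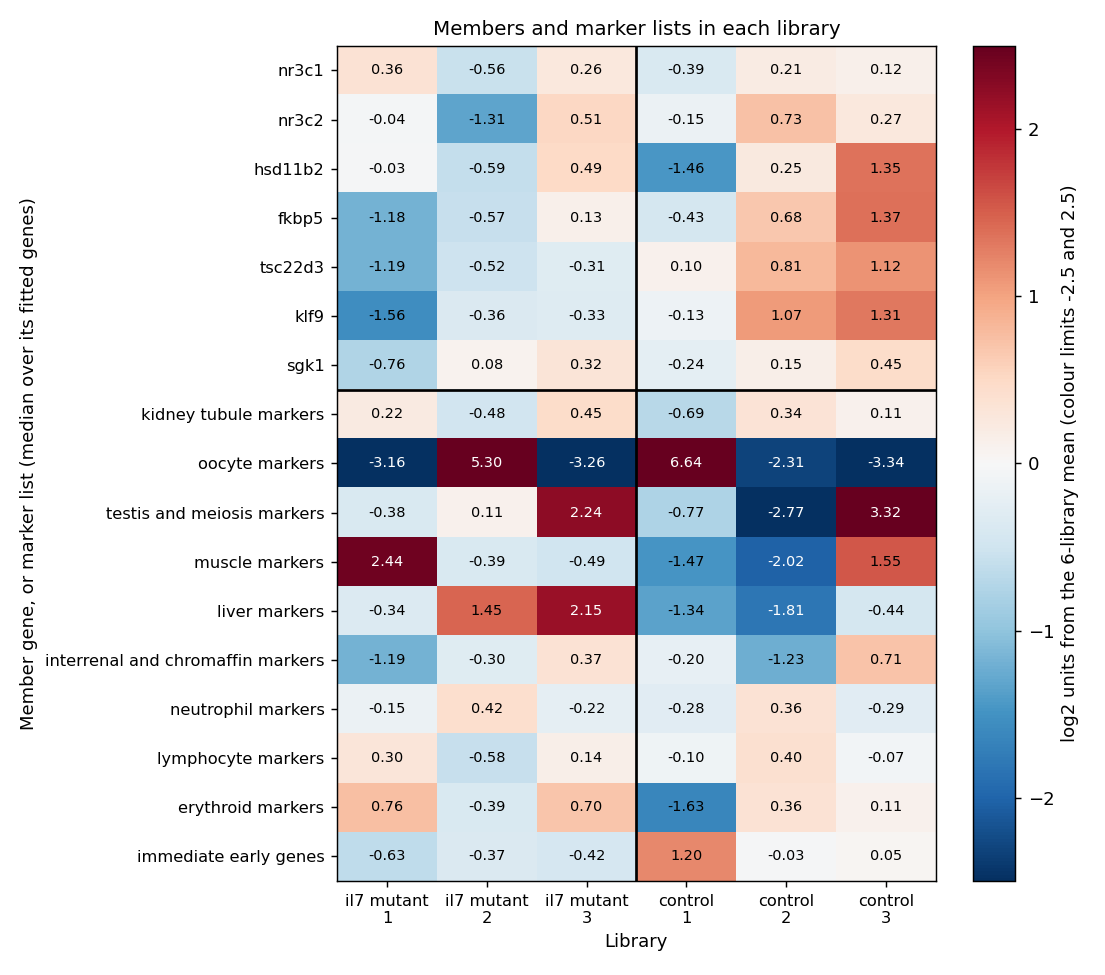
Each cell gives log2 units from the mean of the 6 libraries, for the 7 genes (upper rows) and for the median of each marker list (lower rows), with il7 mutant libraries in the left columns and control libraries in the right columns. Colours stop at 2.5 units, while the printed values go on, as for the oocyte markers at 5.30 in il7 mutant 2 and 6.64 in control 1. The induced genes fkbp5, tsc22d3 and klf9 are lowest in il7 mutant 1 and highest in control 3.

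The genes whose log2 values followed each member most closely over the 6 libraries were looked up among all fitted genes. For tsc22d3 these were klf9 itself (Pearson r = 0.984) and nfkbiab (r = 0.984), which encodes an inhibitor of NF-kappa-B, and for klf9 they were tsc22d3 and CDA (r = 0.984), a cytidine deaminase gene. For hsd11b2 they were slc22a7b.2 (r = 0.997), an organic anion transporter gene, and slc9a3.1 (r = 0.997), a sodium-proton exchanger gene. The nearest genes were syt5b and PHKB for fkbp5 (r = 0.988 and 0.987), SEMA4B and shc2 for sgk1 (r = 0.978 and 0.973), PTPRG and C1QTNF9 for nr3c1 (r = 0.993 and 0.991) and SLC52A2 and TTC14 for nr3c2 (r = 0.998 and 0.990). Features without a symbol or with a clone name were passed over, so for tsc22d3, nr3c1 and sgk1 some closer features are not named. Each was picked from 20782 genes over only 6 points that share their library, so these values describe the pattern and carry no test.

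Other genes known to be induced by glucocorticoids were split. Of 35 listed symbols, 32 matched 31 features, 30 of them fitted, and 19 were lower and 11 higher in il7 mutants, with a median log2 change of −0.24 against −0.04 over all fitted genes. None passed the adjusted threshold. With no overlap between the groups, 5 of the 30 were lower, where 4.44% of all fitted genes were, and 1 was higher, where 3.51% were. This list and those that follow were also chosen with earlier results known, so their shares carry no test. The MAP kinase phosphatase gene DUSP1 had 2102, 3875 and 7979 normalized counts in il7 mutants 1, 2 and 3, against 11987, 12385 and 22154 in controls 1, 2 and 3, a log2 change of −1.89 (SE 0.52, adjusted p = 1.00 in limma). These groups did not overlap.

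The NF-kappa-B inhibitor gene nfkbiab had 2896, 5547 and 7610 normalized counts in il7 mutants 1, 2 and 3, against 8896, 12949 and 20235 in controls 1, 2 and 3 (log2 change −1.42, SE 0.45). The CEBPD gene, which encodes a C/EBP transcription factor, had 699, 2674 and 4001 in il7 mutants 1, 2 and 3, against 5782, 5835 and 11639 in controls 1, 2 and 3 (log2 change −1.90, SE 0.67, or −1.16 without il7 mutant 1). Neither gene's groups overlapped, and both had an adjusted limma p of 1.00. The related gene nfkbiaa on the same list did have overlapping groups, with a log2 change of −0.17 (SE 0.27). It stood at 1466 to 1844 normalized counts in il7 mutants and 1416 to 2578 in controls. Named after their values were seen, the other 2 lower genes without overlap were CEBPB (log2 change −0.89) and the sestrin gene SESN1 (−0.78), and the higher one was the lipase inhibitor gene ANGPTL4 (1.23). The stress gene DDIT4 had the lowest log2 change of the list, −2.58, with overlapping groups at 277, 2865 and 4697 in il7 mutants 1, 2 and 3, against 3943, 10043 and 20100 in controls 1, 2 and 3. The highest was 3.15 for trim63a, a muscle ubiquitin ligase gene, also with overlapping groups, at 354, 96.2 and 24.0 in il7 mutants 1, 2 and 3, against 1.57, 8.08 and 52.1 in controls 1, 2 and 3. Both had an adjusted limma p of 1.00.

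Several of these genes, DUSP1 among them, also belong to the first response of cells to stimulation. Of 17 immediate early genes, a list drawn up after the values were seen, 16 were fitted, 15 were lower in il7 mutants, and the median log2 change was −0.87. In this list 5 of the 16 were lower with no overlap, where 4.44% of all fitted genes were. The AP-1 gene JUN stood at 1662, 1824 and 2548 normalized counts in il7 mutants 1, 2 and 3, against 8330, 6971 and 4802 in controls 1, 2 and 3 (log2 change −1.72, SE 0.29, adjusted p = 0.62 in limma). The authors' deposited table calls JUN (adjusted p = 0.000994), with −1.74 as its unshrunken log2 fold change. The summed level lay between 15701 and 18100 in il7 mutants and between 24337 and 50165 in controls, and none of the 17 was at 0 in all libraries. Control 1 was the highest in these genes and the lowest control in the 4 induced members. The part of the immediate early response in the levels of the induced genes was not tested.

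**Figure D5:**
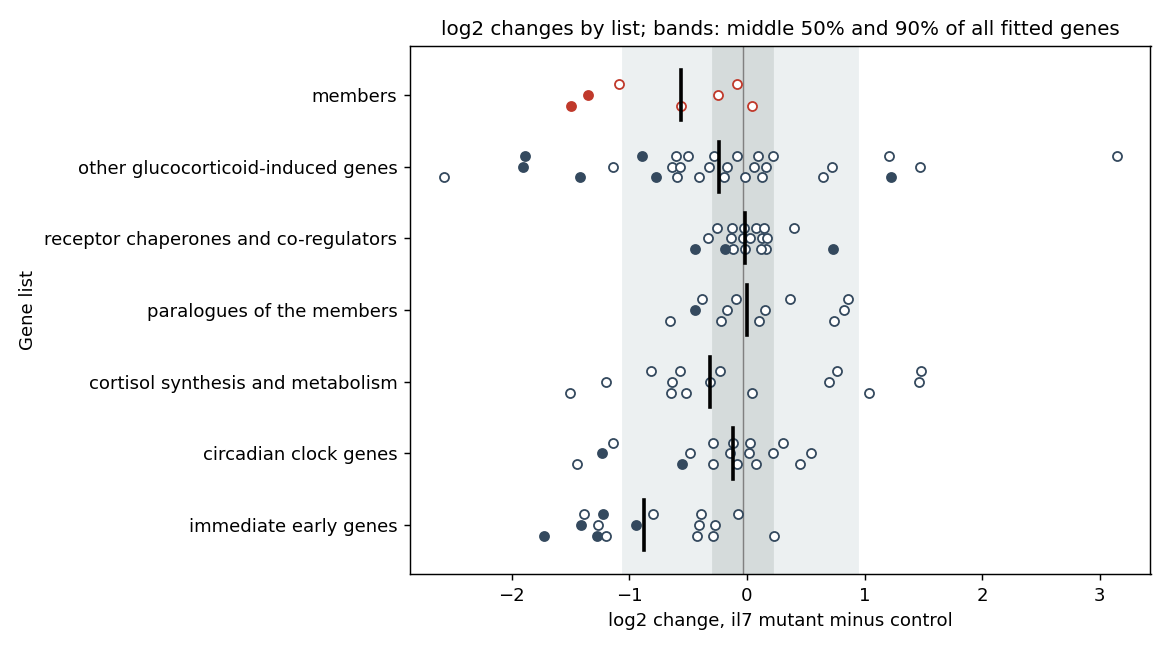
The log2 change, il7 mutant minus control, of every fitted gene is plotted by list, with the 7 genes in red, a black bar at each list's median and filled points where the groups do not overlap. The grey bands hold the middle 50% and 90% of all fitted genes, the wider one from −1.05 to 0.94. The medians are −0.56 for the 7 genes, −0.24 for other induced genes and −0.87 for immediate early genes.

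Genes of the receptor's chaperone complex and its co-regulators lay close to 0. Of 21 symbols, 20 matched 21 features, 19 of them fitted, with 10 lower and 9 higher, a median log2 change of −0.02 and 0 past the adjusted threshold. With no overlap between the groups, 2 were lower (FKBP4 and NCOA2), where 4.44% of all fitted genes were, and 1 was higher, where 3.51% were. The co-chaperone gene FKBP4, which encodes the counterpart of the fkbp5 product in the receptor complex, had 4982, 4569 and 3382 normalized counts in il7 mutants 1, 2 and 3, against 5845, 6059 and 5487 in controls 1, 2 and 3. These groups did not overlap, and the log2 change was −0.45 (SE 0.21, adjusted p = 1.00 in limma), or −0.28 without il7 mutant 3. The chaperone gene HSP90AB1, whose product holds the receptor ready for hormone, had a log2 change of −0.12 (SE 0.28). The chromatin remodeller feature SMARCA4 (ENSDARG00000104339) was higher in every il7 mutant library than in any control, at 178, 133 and 152 normalized counts in il7 mutants 1, 2 and 3, against 85.9, 74.8 and 120 in controls 1, 2 and 3 (log2 change 0.73, SE 0.34). The other SMARCA4 feature (ENSDARG00000077226) held far more, 6376 to 10100 normalized counts per library, with overlapping groups and a log2 change of −0.13 (SE 0.25). The p23 co-chaperone feature PTGES3 (ENSDARG00000037284) had a log2 change of 0.40 (SE 0.35), or 0.05 without control 1 and 0.21 without the oocyte-rich pair. The other PTGES3 feature (ENSDARG00000089626) had −0.03 (SE 0.30).

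Paralogues and relatives of the members were spread around 0. The paralogues TSC22D1 and tsc22d2 had log2 changes of −0.10 (SE 0.22) and 0.10 (SE 0.21), klf13 had −0.66 (SE 0.69) and SGK3 had 0.16 (SE 0.19). Of 12 fitted paralogues 6 were lower and 6 higher, with a median of 0.00 and 0 past the adjusted threshold, and the differences between paralogues and members were not tested. The estrogen receptor gene ESR1 stood at 289, 455 and 308 in il7 mutants 1, 2 and 3, against 109, 307 and 214 in controls 1, 2 and 3 (log2 change 0.83, SE 0.45). The groups overlapped and the adjusted limma p was 1.00, and the log2 change was 0.22 without the oocyte-rich pair. The symbol table gives some copies the same symbol, so reads of near-identical copies may be split between them in ways the counting did not resolve.

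Genes of cortisol synthesis and metabolism, which act in interrenal and other steroid-making cells, overlapped between the groups. Of 20 symbols, 16 matched 17 features, 15 of them fitted, with 9 lower and 6 higher, a median log2 change of −0.32, 0 past the adjusted threshold and no gene without overlap. The reductase gene hsd11b1la, a relative of the enzyme that reactivates cortisone in mammals, had 1310, 864 and 1204 normalized counts in il7 mutants 1, 2 and 3, against 1197, 2002 and 1674 in controls 1, 2 and 3 (log2 change −0.52, SE 0.28, or −0.34 without il7 mutant 2). The steroid 21-hydroxylase gene cyp21a2 had a log2 change of 1.46 (SE 0.84) and the CYP11A1 feature ENSDARG00000002347 one of 1.48 (SE 1.21), both with overlapping groups. Single controls set much of both, since without control 2 they were 2.46 for cyp21a2 and 0.06 for CYP11A1. Without the oocyte-rich pair they were 0.99 for cyp21a2 and 2.71 for CYP11A1. The other CYP11A1 feature (ENSDARG00000092696) went the other way, at −0.81 (SE 1.42), with 0 to 27.6 normalized counts per library. The corticotropin receptor gene mc2r, a defining interrenal marker, was below the filter, at 0 to 6.94 normalized counts in il7 mutants and 0 to 18.1 in controls.

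Clock genes, some of which glucocorticoids also set, were compared because klf9 is itself under clock control in mammals. Of 20 symbols, 18 matched 18 features, 17 of them fitted, with 10 lower, 7 higher, a median log2 change of −0.12 and 0 past the adjusted threshold. The repressor gene NR1D1 had 1352, 1962 and 2586 normalized counts in il7 mutants 1, 2 and 3, against 3008, 6509 and 4522 in controls 1, 2 and 3 (log2 change −1.23, SE 0.37, adjusted p = 1.00 in limma). Its groups did not overlap, nor did those of ciarta (−0.55, SE 0.21), while those of nr1d2a did (−1.44, SE 0.54). The related feature NR1D2 (ENSDARG00000009594) had overlapping groups too, with a log2 change of 0.075 (SE 0.393). Thus 2 of the 17 were lower with no overlap, where 4.44% of all fitted genes were. With no overlap 0 were higher, where 3.51% of all fitted genes were. Of the period genes, PER2 had a log2 change of 0.45 (SE 0.42) and PER3 one of −0.29 (SE 0.29). The 2 PER1 features, counted with the induced genes, had 0.13 (SE 0.26) for ENSDARG00000012499 and −0.41 (SE 0.29) for ENSDARG00000056885.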

How the data were processed

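Stranded total RNA libraries depleted of ribosomal RNA were sequenced, as the protocols in the labels state. Read conversion, alignment, counting and normalization tools named by the submitters are DESeq2 1.14.1, featureCounts 1.5.2, STAR 2.5.3a and bcl2fastq 2.17.1.14, with build GRCz10 but without settings. The values used are signal of the kind called normalized counts, as deposited by the authors from DESeq2 per the labels. The authors' deposited table gives shrunken and unshrunken log2 fold changes with p-values, and its deposited score columns (standard error and Wald statistic) were not used. Depth was worked out from the normalized counts, all whole multiples (within 1e-06) of the smallest positive value of their column, which was taken as 1 read. In 3 of the 6 libraries that value lies near 1 normalized count, so the reads and depths printed here are inferences.

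A gene name table gave symbols for 26433 of 32267 features (81.9%). Features averaging at least 10 normalized counts were fitted on log2(value + 1) by limma (version 3.58.1, under R 4.3.3) using a variance trend and Benjamini-Hochberg adjustment over all of them, threshold 0.05. Single values and ratios were compared by two-sided exact permutation tests (scipy 1.17.1). The fit was tested on simulated data. No 2 libraries agreed within sampling noise (smallest chi-square per degree of freedom 97.7). The members and lists were chosen with earlier results of these data known. Listed symbols with no match were looked up without a final a or b, a choice made after the files were seen. Genes were named by rule: il7, the members, the 3 genes with the smallest p in each pathway list, and the 2 genes most correlated with each member, leaving out clone names. Genes named outside the rule were chosen after their values were seen. One gene that the rule names is not reported here. Alternatives covered pseudocount, filter, scaling, model and libraries left out. No sequences or coordinates were used here.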

Additional observations from a re-analysis of the deposited data

How the results depend on the processing

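Across 18 alternative fits (pseudocounts, filters, scalings, variance model, weights, replicate block, model term and libraries left out), limma called 0 genes in every one, with the smallest adjusted p of any gene between 0.0634 with array quality weights and 0.816 with the replicate block. The log2 change stayed negative in all 18 for tsc22d3 (−1.72 to −1.10), klf9 (−2.14 to −1.09), fkbp5 (−1.57 to −0.67) and nr3c2 (−0.96 to −0.05). The smallest adjusted p of these was 0.277, for tsc22d3 with array quality weights. With single libraries left out, nr3c1 ranged from −0.15 to 0.33, hsd11b2 from −0.84 to 0.56, sgk1 from −0.46 to 0.08 and the sgk1 to nr3c1 ratio from −0.67 to 0.21, so their directions are not fixed. With quantile normalization hsd11b2 stood at 0.01. The number of members without overlap was 2 with all libraries, 2 to 3 with 1 library left out and 4 without il7 mutant 2 and control 1. Of all fitted genes, 4.44% were lower and 3.51% higher without overlap with all libraries, and 16.6% and 15.7% without that pair. The share with 1 library left out was not computed, and smaller groups separate more easily, so the rise says nothing of the members. The nr3c1 to nr3c2 difference ranged from 0.38 to 0.89 with 1 library left out and was 0.61 with the replicate block (exact p = 0.5). The deviations of same-numbered libraries correlated at −0.51, −0.40 and 0.51 for replicates 1, 2 and 3. The oocyte-rich libraries carry different numbers, so these values cannot decide whether the replicate numbers pair the samples. The block called 0 genes. The 2 planned count models, edgeR and DESeq2, were not run: the deposited values are normalized, and reads inferred from them were not taken as counts because the step lies near 1 in 3 of the 6 libraries. TMM factors were computed directly. Scalings moved the median of all genes by less than 0.1 log2 units. The pathway genes named by rule kept their direction in all 18 alternatives. At 61 to 250 reads per library, nr3c2 was the member most limited by depth. With 3 libraries a group, the wide intervals of hsd11b2 and fkbp5 reflect the spread between libraries.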

Other observations

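Some steroid genes and a single clock feature followed the oocyte-rich libraries rather than the groups. The steroid dehydrogenase gene hsd3b2 had 738 normalized counts in il7 mutant 2 and 705 in control 1, and at most 5 reads in any other library. The CYP17A1 gene, which encodes a steroid hydroxylase, had 1310 in il7 mutant 2 and 4212 in control 1, and 8.08 to 175 elsewhere. The clock feature BMAL1 (ENSDARG00000006791) stood at 1112 in il7 mutant 2 and 1992 in control 1, with 529 to 571 elsewhere. The other BMAL1 feature (ENSDARG00000035732) did not follow both, at 176.5 in il7 mutant 2 and 289.9 in control 1, with 150.9 to 213.8 elsewhere.

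The pair that held the most cyp11c1 transcripts, il7 mutant 3 and control 3, also held the most of 2 induced metabolic features, picked after the values were seen. The same pair was highest in summed kidney tubule markers, at 568286 and 593958, and in the median of the testis and meiosis markers. The other measure of each list did not single out this pair. By the median of the tubule markers control 3 (0.11) lay below control 2 (0.34) and il7 mutant 1 (0.22). By summed testis and meiosis markers il7 mutant 3 (5207) lay below il7 mutant 2 (6102) and control 1 (6869). What sets the levels of the 2 metabolic features was not tested. PCK1, a gluconeogenic enzyme gene, had 9394 normalized counts in il7 mutant 3 and 30206 in control 3, and 275 to 2752 elsewhere. The glutamine synthetase feature GLUL (ENSDARG00000100003) had 28746 in il7 mutant 3 and 78246 in control 3, and 7431 to 12462 elsewhere. The other GLUL feature (ENSDARG00000099776) did not follow that pair. It was lowest in il7 mutant 3, at 1680, and highest in il7 mutant 2, at 10350, with 5827 in control 3.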
